A study of Mus musculus with 6 samples.

Results

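The 10 genes described here encode transcription regulators of the melanocyte lineage, namely Mitf and its relatives Tfe3 and Tfeb, the neural crest factors Sox10, Pax3, Tfap2a, Zeb2 and Snai2, the T-box factor Tbx2 and the co-regulator Cited1. They were taken by name from the deposited count table, in which each name matched 1 of 22740 genes, and all 10 were among the 11921 genes that passed the filter on low counts. The study used B16-F3, a melanoma cell line of the mouse, and a flow cytometer parted its high-pigmented cells (HPC) from its low-pigmented cells (LPC), using the way that melanin inside a cell scatters light. From each population 3 RNA libraries were made with a kit that reads the 3' ends of polyadenylated transcripts, starting from 100 ng of total RNA. Both populations came from the same line grown in the same serum-containing medium. The labels name no drug or gene change, and each group carries the replicate numbers 1, 2 and 3. As a model this is 1 cultured line, and whether the replicates are separate cultures or sorts is not stated in the labels. The comparison asks how far mRNA levels of these regulators go with the pigment of a cell.

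As background, MITF is a basic helix-loop-helix leucine zipper factor that binds E-box sequences and drives the genes of melanin synthesis, including Tyr, the gene of tyrosinase. TFE3 and TFEB share its DNA-binding domain and are best known for controlling lysosome and autophagy genes. SOX10 and PAX3 activate Mitf in the neural crest, and the promoter of the melanocyte form, the M promoter, also carries a cyclic AMP response element (CRE) through which hormone signals reach it. Mitf transcripts of the different promoters share their 3' exons, so these libraries cannot separate the melanocyte form from the others.

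The reference promoter of the melanocyte form of Mitf is shown because it holds the CRE, and 1 promoter window of Cited1 because it holds the core of the M-box, CATGTG, an E-box that MITF binds. Both are RefSeq windows on GRCm38.p6 of the C57BL/6J reference, with 250 bases before and 50 from the annotated start, written 5′ to 3′ on the strand of the gene. They are not read from B16-F3 DNA. The first lies at chr6:97991533-97991832 on the plus strand, where the capitals mark the CRE, TGACGTCA, and the second at chrX:102251794-102252093 on the minus strand, where the capitals mark CATGTG.
Mitf, M promoter: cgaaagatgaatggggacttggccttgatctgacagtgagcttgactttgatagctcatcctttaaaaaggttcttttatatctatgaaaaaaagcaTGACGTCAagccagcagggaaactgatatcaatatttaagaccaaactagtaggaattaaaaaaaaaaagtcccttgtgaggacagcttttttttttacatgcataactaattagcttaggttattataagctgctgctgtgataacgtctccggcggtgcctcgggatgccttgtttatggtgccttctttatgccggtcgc
Cited1, middle of 3 annotated starts: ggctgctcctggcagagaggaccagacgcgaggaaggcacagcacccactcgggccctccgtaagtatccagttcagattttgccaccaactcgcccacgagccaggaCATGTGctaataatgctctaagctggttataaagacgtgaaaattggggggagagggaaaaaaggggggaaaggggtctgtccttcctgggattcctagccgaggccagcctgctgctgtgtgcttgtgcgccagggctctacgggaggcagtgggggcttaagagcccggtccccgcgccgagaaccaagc
The CRE begins 153 bases before the Mitf start, and CATGTG 142 bases before this Cited1 start. RefSeq windows were found for 6 of the 10 genes (Mitf, Tfe3, Tfeb, Tfap2a, Zeb2 and Cited1), 17 windows in all. Over all 32851 windows of the same length in the table, TGACGTCA on either strand was present in 1.79% and CATGTG in 14.2%. The palindromic E-box CACGTG, which stood in 7.15% of all windows, was in none of the 17. A SOX motif, ACAAAG, was in 1 window of Zeb2, and a TFAP2 motif, GCCNNNGGC, in 1 window of Mitf, 2 overlapping windows of Zeb2 and 1 of Cited1, against 18.7% and 16.6% of all windows. Each motif was searched on both strands, and a match is a description of the letters and not a bound site.

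Total counts were 18131623 to 22186743 per HPC library and 14695822 to 18810435 per LPC library, and mitochondrial genes took 2.07% to 3.21% of them in HPC and 2.36% to 2.56% in LPC. The 10 genes together took 0.213% to 0.252% of the counts in HPC and 0.216% to 0.258% in LPC. Pigment cell markers were abundant in both, with 7 genes summing to 33400 to 36200 CPM, counts scaled to a common library size, in HPC and 32500 to 34800 CPM in LPC. Of 6 measured immune markers, 3 were at 0 in every library, namely Ptprc, Cd3e and Itgam, with sums of 1.22 to 2.81 CPM in HPC, against 1.29 to 1.95 CPM in LPC. All 4 keratinocyte markers were at 0, and 4 endothelial markers, of which Cdh5 and Kdr were at 0, summed to at most 0.355 CPM in HPC and 0.213 CPM in LPC. The 6 fibroblast markers, none at 0, summed to 19.2 to 27.7 CPM in HPC, against 17.6 to 34.6 CPM in LPC. The 5 Schwann cell and glial markers, several of which SOX10 drives in glia, summed to 333 to 481 CPM in HPC, against 282 to 435 CPM in LPC.

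Mitf mRNA did not pass the test between the populations, and its measured levels lay close together. It stood at 616, 532 and 493 CPM in HPC libraries 1, 2 and 3, against 612, 460 and 516 CPM in LPC libraries 1, 2 and 3. The highest and the lowest of the 6 values lay in HPC replicate 1 and LPC replicate 2, and the groups overlapped across most of their range. The log2 fold change, HPC over LPC, was 0.047 with a standard error (SE) of 0.14 (edgeR quasi-likelihood test, adjusted p = 0.962). Its 95% interval ran from 0.82-fold to 1.30-fold, so a difference inside that range could not be told from none with 3 libraries a group. In these bulk samples, fewer cells that express a gene and less of its mRNA per cell cannot be told apart. With the replicate number as a block, a fit that compares HPC with LPC inside each number, the interval was 0.89-fold to 1.21-fold and Mitf again did not pass (edgeR adjusted p = 0.833). The gene, ENSMUSG00000035158, spans bases 97807052 to 98021349 of chromosome 6 on the plus strand in GRCm38, the build of all gene coordinates here, and overlaps the pseudogene Gm15531 on the opposite strand.

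Tfe3 (ENSMUSG00000000134), which maps to bases 7762560 to 7775202 of the X chromosome, plus strand, did not pass the test. Its levels were 74.4, 72.6 and 78.1 CPM in HPC libraries 1, 2 and 3, against 72.0, 82.5 and 91.1 CPM in LPC libraries 1, 2 and 3. The HPC libraries lay close together and inside the range of the LPC libraries. Between populations the log2 fold change was -0.13 (SE 0.12, edgeR adjusted p = 0.812), with an interval of 0.76-fold to 1.10-fold.

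Tfeb (ENSMUSG00000023990), on bases 47737030 to 47792419 of chromosome 17, plus strand, varied more between replicate numbers than between populations. Its levels were 24.9, 33.3 and 45.5 CPM in HPC libraries 1, 2 and 3, against 21.4, 36.1 and 40.2 CPM in LPC libraries 1, 2 and 3. In both populations the library numbered 1 was lowest and the one numbered 3 highest. Its log2 fold change was 0.087 (SE 0.28, edgeR adjusted p = 0.963), with an interval of 0.68-fold to 1.65-fold. Inside the replicate numbers the interval narrowed to 0.89-fold to 1.27-fold.

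**Figure D1:**
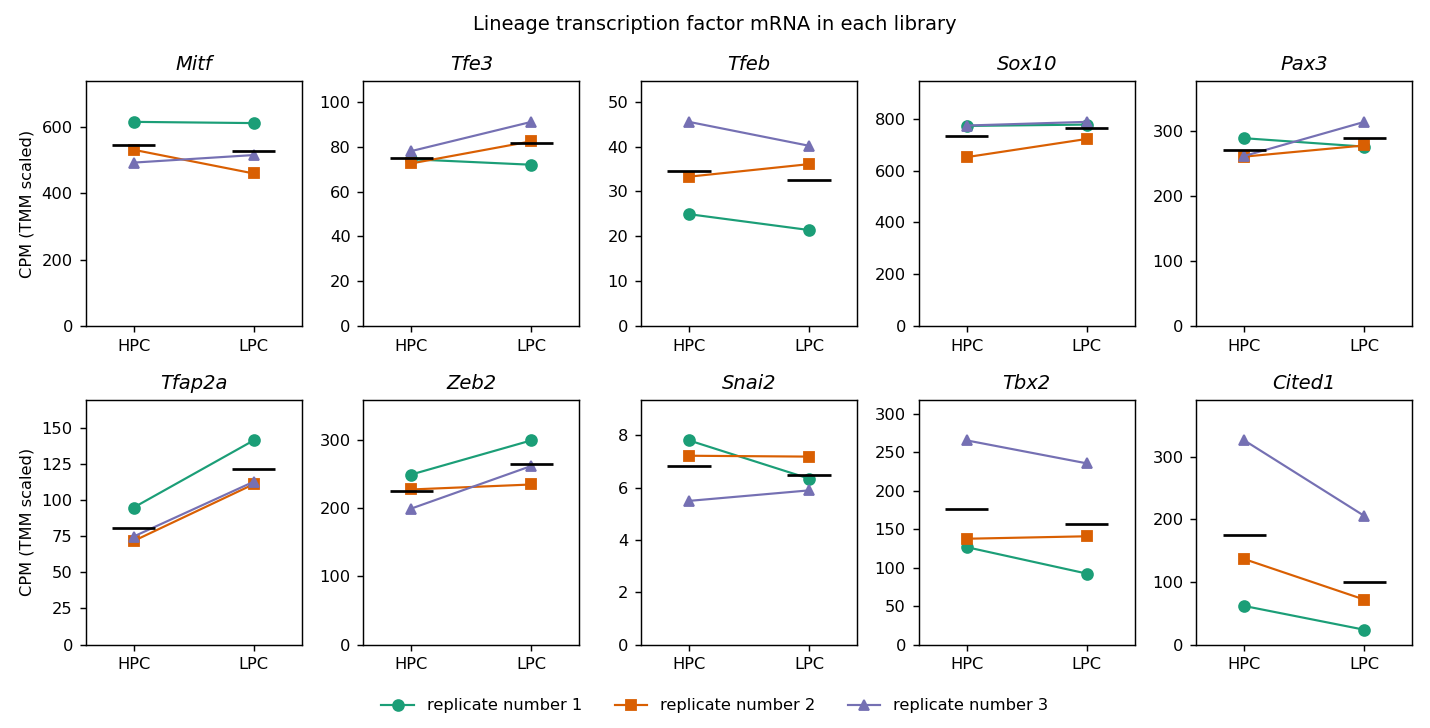
CPM (vertical axes, each from 0) of the 10 lineage regulators in each HPC and LPC library. Points are libraries, lines join libraries with the same replicate number and black bars are means of 3 libraries. The groups of Tfap2a do not overlap, with HPC from 71.8 to 95.1 CPM below LPC from 111 to 142 CPM, while the lines of Cited1 lie far apart from one replicate number to another.

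Sox10, the neural crest factor that activates Mitf and other pigment cell genes, did not pass the test. It measured 773, 652 and 774 CPM in HPC libraries 1, 2 and 3, against 778, 723 and 789 CPM in LPC libraries 1, 2 and 3. The libraries numbered 2 were the lowest of each population. The log2 fold change was -0.058 (SE 0.12, edgeR adjusted p = 0.932), with an interval of 0.80-fold to 1.15-fold. HPC was the lower one in all 3 pairs of equally numbered libraries, with differences of -0.0095, -0.15 and -0.026 on the log2 scale, and 21.3% of all tested genes were lower in all 3 pairs. Sox10 (ENSMUSG00000033006) maps to bases 79154908 to 79165240 of chromosome 15, minus strand.

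Pax3, a paired-box factor of the neural crest that acts on Mitf together with SOX10, did not pass either. It was at 290, 261 and 262 CPM in HPC libraries 1, 2 and 3, against 277, 278 and 315 CPM in LPC libraries 1, 2 and 3. HPC replicate 1 lay above LPC replicates 1 and 2, so the groups overlapped. Between populations the log2 fold change was -0.098 (SE 0.11, edgeR adjusted p = 0.847), with an interval of 0.79-fold to 1.11-fold. Pax3 (ENSMUSG00000004872) maps to bases 78101267 to 78197134 of chromosome 1, minus strand.

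Tfap2a was lower in HPC by about the same amount in each replicate number. TFAP2A, or AP-2 alpha, is a neural crest factor that acts at pigment cell genes alongside MITF. Its levels were 95.1, 71.8 and 74.9 CPM in HPC libraries 1, 2 and 3, against 142, 111 and 113 CPM in LPC libraries 1, 2 and 3. Every HPC library lay below every LPC library, and the libraries numbered 1 were the highest of each population. Over all tested genes, 7.18% had groups that did not overlap with HPC lower, and Tfap2a was the only one of the 10. None of the 10 had such groups with HPC higher, where 7.16% of all tested genes did. The mean of the HPC libraries was 80.6 ± 12.6 CPM, against 122 ± 17.1 CPM in LPC (SD over 3 libraries of each), which is 1.51-fold lower in HPC.

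Whether the difference of Tfap2a passed the test depended on how the spread between libraries was treated. Without the block it did not pass over all genes (edgeR, log2 fold change -0.60, SE 0.15, unadjusted p = 0.00399, adjusted p = 0.245). With the block the same change, -0.60, had an SE of 0.087 and passed (edgeR adjusted p = 0.0241), and DESeq2 without the block also called it (adjusted p = 0.0386). The differences inside the pairs were -0.58, -0.63 and -0.59 on the log2 scale, which puts HPC at 0.671, 0.646 and 0.664 times the equally numbered LPC library. Over 18 alternatives, described at the end, the log2 fold change ran from -0.73 to -0.48 and the adjusted p from 1.04e-08 to 0.753, the lowest of them in a fit of 2 pairs with 1 residual degree of freedom. With the block it did not pass when the pair numbered 2 (edgeR adjusted p = 0.267) or 3 (0.0759) was left out. Without the pair numbered 2 that fit called 0 of 11927 genes, and the log2 fold change of Tfap2a was -0.58. Tfap2a (ENSMUSG00000021359) maps to bases 40715302 to 40738376 of chromosome 13, minus strand, and overlaps the antisense genes Gm47061, Gm26688 and Gm47067. Since the use of strand in counting is not given in the sources used here, reads of these antisense genes cannot be told apart from those of Tfap2a.

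Zeb2, a zinc finger factor that acts in melanocyte differentiation and gives way to its relative Zeb1 in less differentiated melanoma cells, had a smaller difference that did not pass. It was at 249, 227 and 199 CPM in HPC libraries 1, 2 and 3, against 299, 235 and 262 CPM in LPC libraries 1, 2 and 3. HPC was the lower one in all 3 pairs, at 0.833, 0.969 and 0.761 times the LPC library, but HPC replicate 1 lay above LPC replicate 2. Its log2 fold change was -0.24 (SE 0.13, edgeR adjusted p = 0.674), and -0.23 with the block (SE 0.0997, edgeR unadjusted p = 0.0482, adjusted p = 0.262). Zeb2 (ENSMUSG00000026872) maps to bases 44983632 to 45117395 of chromosome 2, minus strand, and overlaps the antisense gene Zeb2os and small RNA genes. The limit of strand stated for Tfap2a applies here too, and to Mitf with the pseudogene Gm15531.

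Snai2, also called Slug, a repressor needed by migrating pigment cell precursors, was the gene with the fewest counts. It had 139, 160 and 108 counts in HPC libraries 1, 2 and 3, and 94, 136 and 88 counts in LPC libraries 1, 2 and 3. Scaled, these were 7.80, 7.22 and 5.49 CPM in HPC and 6.34, 7.18 and 5.89 CPM in LPC. The groups overlapped, with HPC replicate 3 the lowest of all. The log2 fold change was 0.077 (SE 0.21, edgeR adjusted p = 0.958), with an interval of 0.75-fold to 1.48-fold. Snai2 (ENSMUSG00000022676) maps to bases 14705852 to 14709385 of chromosome 16, plus strand.

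Tbx2, a T-box repressor that restrains senescence in melanoma and is a known target of MITF, followed the replicate number. It was at 127, 138 and 266 CPM in HPC libraries 1, 2 and 3, against 92.3, 141 and 236 CPM in LPC libraries 1, 2 and 3. The libraries numbered 3 were the highest of both populations and those numbered 1 the lowest. The log2 fold change between populations was 0.18 (SE 0.38, edgeR adjusted p = 0.938), with an interval from 0.62-fold to 2.05-fold. Inside the replicate numbers it was 0.20 (SE 0.11, edgeR adjusted p = 0.389) with an interval of 0.96-fold to 1.37-fold. Tbx2 (ENSMUSG00000000093) maps to bases 85832551 to 85841948 of chromosome 11, plus strand.

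Cited1 was higher in HPC inside every replicate number, while its level moved even more from one number to another. CITED1 has no DNA-binding domain of its own, binds the acetyltransferases CBP and p300, and was first described as a melanocyte-specific gene. It was at 61.5, 136 and 326 CPM in HPC libraries 1, 2 and 3, against 23.5, 71.7 and 205 CPM in LPC libraries 1, 2 and 3. LPC replicate 3 lay above HPC replicates 1 and 2, so the groups overlapped. Inside the pairs HPC was 2.61-, 1.90- and 1.59-fold higher, and 19.6% of all tested genes were higher in all 3 pairs. Without the block the log2 fold change was 0.80 (SE 0.77, edgeR adjusted p = 0.815), with an interval from 0.51-fold to 5.92-fold. With the block it was 0.98 (SE 0.14, edgeR adjusted p = 0.0220), 1.97-fold with an interval of 1.58-fold to 2.46-fold. Over the 18 alternatives its adjusted p ran from 6.86e-17, in a fit of 2 pairs with 1 residual degree of freedom, to 1, and without HPC replicate 3 and without the block its log2 fold change was -0.013. With the block it did not pass when the pair numbered 2 was left out (edgeR adjusted p = 0.195). That fit called 0 of 11927 genes, and the log2 fold change of Cited1 there was 1.01. Cited1 (ENSMUSG00000051159) maps to bases 102247381 to 102252181 of the X chromosome, minus strand, and overlaps no other gene.

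**Figure D2:**
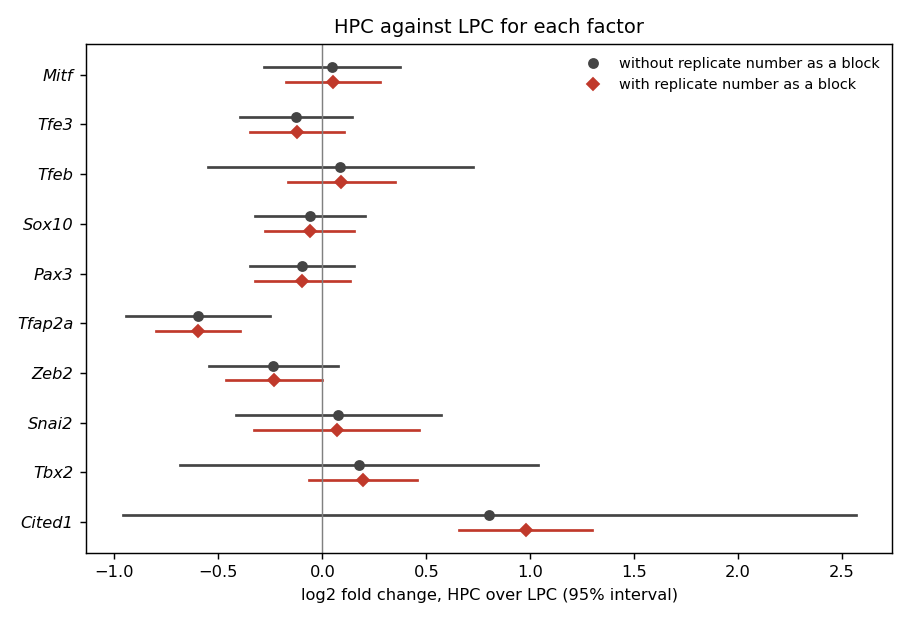
Log2 fold change, HPC over LPC, of each factor (horizontal axis) with its 95% interval, from edgeR without (grey circles) and with (red diamonds) the replicate number as a block. With the block the intervals of Tfap2a, -0.80 to -0.40, and Cited1, 0.66 to 1.30, lie furthest from 0.

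Across the 10 genes, edgeR without the block called 0 as changed, at a background of 0.0419% of tested genes. At an unadjusted p under 0.05 there was 1 member, Tfap2a, at a background of 9.37%, while DESeq2 called 1, also Tfap2a, at a background of 1.88%, and limma-voom 0. With the block edgeR called 2 of 10, at a background of 2.52%. They were Cited1 as higher in HPC, as 1.43% of all tested genes were, and Tfap2a as lower, as 1.10% were. At an unadjusted p under 0.05 with the block there were 3 members, Zeb2 being the third, at a background of 18.8%. DESeq2 with the block also called Cited1 and Tfap2a, 2 of 10, at a background of 4.19%. Neither passed with edgeR and the block when the pair numbered 2 was left out, a fit that called 0 of 11927 genes. Log2 fold changes were positive for 5 members and negative for 5, with a median of -0.0053 against -0.0091 over all tested genes, and a median size of 0.11 against 0.14. The 95% interval without the block lay within a 2-fold change in either direction for 8 of the 10, all but Tbx2 and Cited1.

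A separate test asked whether a level differed between replicate numbers once the population was taken into account. What a replicate number stands for, such as a day, a sort or a culture, is not given in the labels. Cited1, Tbx2 and Tfeb passed this test, 3 of 10, at a background of 3.18% of all tested genes, and DESeq2 called the same 3 at a background of 7.83%. Cited1 was 6.70-fold higher in the libraries numbered 3 than in those numbered 1 (edgeR adjusted p = 0.00792), by 5.30-fold within HPC and 8.71-fold within LPC. Tbx2 was 2.30-fold higher (edgeR adjusted p = 0.0131), by 2.10-fold within HPC and 2.55-fold within LPC, and Tfeb was 1.85-fold higher (edgeR adjusted p = 0.0389), by 1.83-fold within HPC and 1.88-fold within LPC.

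The other 7 factors did not pass the test of replicate numbers, with edgeR adjusted p from 0.120 for Tfap2a to 0.824 for Pax3. The log2 range of a gene over the 3 replicate numbers, each averaged over HPC and LPC, was 2.76 for Cited1, larger than in 99.9% of tested genes. It was 1.21 for Tbx2 and 0.89 for Tfeb, larger than in 96.3% and 91.9% of them. Pax3 had the smallest range of the 10, 0.091, above 7.78% of tested genes, and Sox10 stood at 0.19 and Mitf at 0.31. The HPC library numbered 1 had the largest share of mitochondrial counts, 3.21%, while the LPC library of the same number, at 2.46%, lay between the other LPC libraries. Total counts were highest in the libraries numbered 2 in both populations. The part of depth, mitochondrial share or other properties of the libraries in these differences was not tested.

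**Figure D3:**
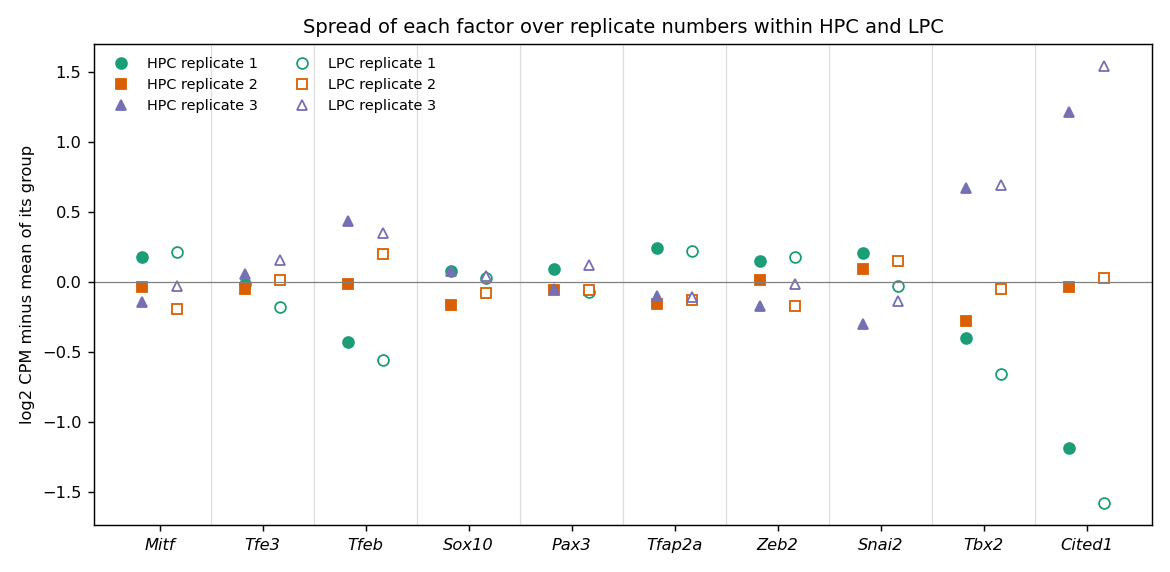
Log2 CPM of each library minus the mean of its own group (vertical axis), for each of the 10 factors, with HPC as filled and LPC as open symbols. For Cited1, Tbx2 and Tfeb the libraries numbered 3 lie above those numbered 1 in both populations, while the points of Sox10 and Pax3 lie close to 0.

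By likeness of pattern, the gene closest to Tfap2a over the 6 libraries was Cd2bp2 with a Pearson correlation of log2 CPM of 0.997, followed by Gas2 with 0.994. Cd2bp2 itself moved within a narrow band, 83.3 to 85.9 CPM in HPC and 87.0 to 89.3 CPM in LPC. The genes closest to Cited1 were Nyap1 and Dennd3, both with a correlation of 0.997. Nyap1 was at 20.6, 31.8 and 58.4 CPM in HPC libraries 1, 2 and 3, against 12.0, 21.3 and 43.9 CPM in LPC libraries 1, 2 and 3. Among the 10214 genes compared, 21 correlated above 0.95 with Tfap2a and 163 with Cited1. The 6 libraries share the group and number differences described above, so these correlations are descriptions.

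Genes known as targets of MITF and SOX10 differed widely among themselves while Mitf and Sox10 did not pass. Of 32 listed targets outside the 10 genes 30 were tested, and their median log2 fold change was 0.21 against -0.0091 over all tested genes. Without the block edgeR called 0 of the 30. Of these 30, 9 had an unadjusted p under 0.05, against 9.37% of all tested genes. DESeq2 called 4, all higher in HPC, against 1.88% of all tested genes in either direction, and limma-voom called 0. With the block edgeR called 6 of 30, all higher in HPC, as were 1.43% of all tested genes, and 15 had an unadjusted p under 0.05, against 18.8% of all tested genes. The 6 were Trpm1, Met, Tyr, Mbp, Oca2 and Myo5a. Trpm1, a cation channel gene of melanocytes whose promoter MITF binds, was at 214, 413 and 407 CPM in HPC libraries 1, 2 and 3, against 32.7, 66.4 and 141 CPM in LPC libraries 1, 2 and 3 (edgeR with the block, log2 fold change 2.28, SE 0.23, adjusted p = 0.00775). The tyrosinase gene Tyr was at 908, 855 and 995 CPM in HPC and at 261, 62.2 and 238 CPM in LPC (edgeR with the block, adjusted p = 0.0210). In the pair numbered 2, where the Tyr difference was 3.78 on the log2 scale, that of Mitf was 0.21, and in the pair numbered 3 the values were 2.06 for Tyr and -0.065 for Mitf. Met, the receptor gene of hepatocyte growth factor, rose in HPC with the block by 2.15 on the log2 scale (SE 0.29, edgeR adjusted p = 0.0189). Without the block Trpm1, Tyr and Met had edgeR adjusted p of 0.206, 0.172 and 0.161. In the blocked fit without the pair numbered 2 they had 0.105, 0.0665 and 0.0804. That fit called 0 of 11927 genes, and so none of the 6. Log2 fold changes with the block were 1.46 for Oca2, a melanosome transporter gene (SE 0.29, edgeR adjusted p = 0.0465), 0.82 for Mbp, the myelin basic protein gene (SE 0.13, 0.0287), and 0.63 for Myo5a, the motor that moves melanosomes (SE 0.13, 0.0495). Without the block these 3 had edgeR adjusted p of 0.477, 0.297 and 0.486.

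The pigment cell markers Tyrp1, Pmel, Dct and Mlana, also targets of these factors, were not called. The pair differences of Tyrp1 on the log2 scale were 0.14, 0.28 and 0.17, those of Pmel 0.37, -0.093 and 0.046, those of Dct 0.067, -0.10 and -0.18, and those of Mlana 0.31, -0.21 and -0.42. None of these 4 genes passed the test over all 6 libraries with or without the block (edgeR adjusted p of 0.378 or more). Without the pair numbered 1, in a blocked fit with 1 residual degree of freedom that called 2947 genes in all, Mlana had a log2 fold change of -0.30 and passed as lower in HPC (edgeR adjusted p = 0.00772).

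**Figure D4:**
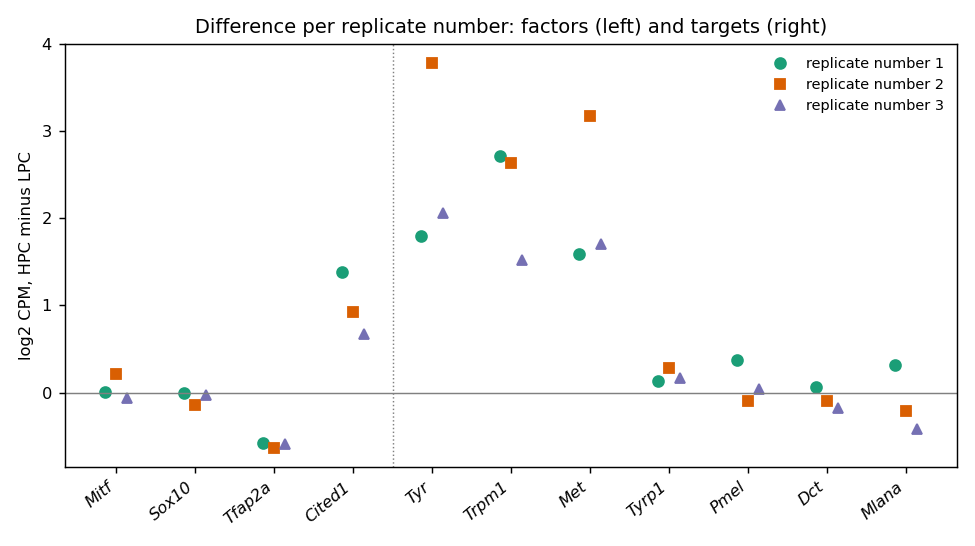
Difference in log2 CPM, HPC minus LPC, between libraries of equal replicate number (vertical axis) for 4 of the factors, left of the dotted line, and 7 target genes, right of it. The 3 points of Mitf lie between -0.065 and 0.21, while those of Tyr lie between 1.80 and 3.78.

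Among 36 other regulators of melanocytes and the neural crest, 20 passed the filter. Foxd3, Twist1, Twist2, Tfap2c, Tfap2e, Tbx3, Msx1, Msx2 and Gli2 had 0 counts in all 6 libraries. Lef1 had at most 8 counts in an HPC library and 4 in an LPC library, Snai1 at most 1 in either, and Tfec, the remaining relative of Mitf, at most 3 in HPC and 1 in LPC. Of the 20 tested, 16 had log2 fold changes below 0, and the median was -0.19 against -0.0091 over all tested genes. Among all 11921 tested genes 6175 were below 0. EdgeR called 0 without the block and limma-voom 0. DESeq2 called 1, lower in HPC, against 1.88% of all tested genes in either direction. At an unadjusted p under 0.05 edgeR had 2 without the block and 6 with it, against 9.37% and 18.8% of all tested genes. With the block edgeR called 1, Nr2f2, an orphan nuclear receptor gene, at 21.7, 25.9 and 26.8 CPM in HPC libraries 1, 2 and 3, against 33.0, 43.1 and 43.9 CPM in LPC libraries 1, 2 and 3 (log2 fold change -0.69, SE 0.10, edgeR adjusted p = 0.0242, against 0.204 without the block). With the block 1.10% of all tested genes were called as lower in HPC. The groups of Nr2f2 did not overlap, as in 7.18% of all tested genes with HPC lower. Its pair differences were -0.60, -0.74 and -0.71, and 21.3% of all tested genes were lower in all 3 pairs. In the blocked fit Nr2f2 did not pass without the pair numbered 2 (edgeR adjusted p = 0.273) or 3 (0.0728). Without the pair numbered 2 that fit called 0 genes in all.

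Some other regulators of the list had tested levels with no call. Zeb1, the relative of Zeb2, had 1 to 22 counts in HPC and 6 to 17 counts in LPC. Sox9, a factor of neural crest and cartilage, averaged 19.7 CPM in HPC against 18.5 CPM in LPC, and Pou3f2, a factor of less differentiated melanoma cells, 2.88 CPM in HPC against 4.89 CPM in LPC (log2 fold change -0.76, edgeR adjusted p = 0.495, and 0.136 with the block). Id3, an inhibitor of helix-loop-helix factors, was called by the test of replicate numbers (edgeR adjusted p = 0.0131) and not between populations.

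Lysosomal and autophagy genes that TFEB and TFE3 control did not pass in edgeR. Of 34 tested, 22 had log2 fold changes above 0 and 12 below, and the median was 0.12 against -0.0091 over all tested genes. Among all 11921 tested genes 5746 were above 0. EdgeR called 0 without the block and 0 with it. An unadjusted p under 0.05 was seen for 4 without the block and 11 with it, against 9.37% and 18.8% of all tested genes. Limma-voom called 0, and DESeq2 called 1 as higher in HPC, against 1.88% of all tested genes in either direction. The 30 tested genes of proteins that set where these factors lie in the cell had a median log2 fold change of 0.011. They include mTOR and Rag genes and 14-3-3 genes, whose products hold TFEB in the cytoplasm, and also calcineurin genes and genes of the GATOR1 complex, which act the other way. EdgeR called 0 of them in either fit, with 1 and 4 at an unadjusted p under 0.05 without and with the block. Over all tested genes these shares were 9.37% and 18.8%. DESeq2 and limma-voom also called 0 of these 30 without the block.

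Genes that act on Mitf from above held calls in both directions with the block. Of 27 tested inputs, edgeR called 0 without the block (3 with an unadjusted p under 0.05, against 9.37% of all tested genes). Limma-voom called 0 and DESeq2 1, lower in HPC, against 1.88% of all tested genes in either direction. With the block edgeR called 2 of 27, against 2.52% of all tested genes, and 6 had an unadjusted p under 0.05, against 18.8%. The called genes were Adcy9, higher in HPC, and Adcy5, lower in HPC, both genes of adenylyl cyclases, the enzymes that make cyclic AMP. Adcy9 was at 16.8, 14.4 and 21.4 CPM in HPC libraries 1, 2 and 3, against 9.18, 9.08 and 14.8 CPM in LPC libraries 1, 2 and 3 (log2 fold change 0.68, SE 0.13, edgeR adjusted p = 0.0469 in the blocked fit, against 0.464 otherwise). Adcy5 was at 2.47, 1.53 and 3.96 CPM in HPC and at 4.59, 7.82 and 13.7 CPM in LPC (log2 fold change -1.70, SE 0.27, edgeR adjusted p = 0.0287 in the blocked fit, against 0.281 otherwise). Neither passed in the blocked fit when the pair numbered 2 was left out (edgeR adjusted p = 0.353 for Adcy9 and 0.267 for Adcy5) or the pair numbered 3 (0.120 and 0.0515).

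The partners of CITED1, TFAP2A and the ZEB and SNAI factors included the CBP, p300 and CtBP genes. Of 19 tested, edgeR called 0 in either fit, and DESeq2 and limma-voom called 0 without the block. An unadjusted p under 0.05 was seen for 2 without the block and 2 with it, against 9.37% and 18.8% of all tested genes. Among 11 tested epithelial and mesenchymal genes that the ZEB and SNAI factors are set against, edgeR called 0 without the block. DESeq2 and limma-voom also called 0 without it. Here 3 had an unadjusted p under 0.05 without the block and 3 with it, against the same 9.37% and 18.8%. With the block edgeR called S100a4 as higher in HPC, as 1.43% of all tested genes were. S100a4, a calcium-binding protein gene linked with motility, was at 5.39, 11.9 and 4.07 CPM in HPC libraries 1, 2 and 3, against 0.742, 3.59 and 2.28 CPM in LPC libraries 1, 2 and 3 (log2 fold change 1.70, SE 0.33, edgeR adjusted p = 0.0444 in the blocked fit, against 0.420 otherwise). In the blocked fit it did not pass without the pair numbered 2 (edgeR adjusted p = 0.381), where 0 genes were called in all.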

How the data were processed

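The authors deposited 1 table of raw counts of reads per gene, not normalized, with a column for each of 6 libraries, 3 of HPC and 3 of LPC, matched by their titles. Per the labels' protocols the libraries were made with QuantSeq 3' mRNA-Seq FWD, and STAR is named as tool and GRCm38 as build, per the submitters' processing notes. The counting program, the strand setting and any molecular identifiers are details not given in the sources used here, so reads copied by PCR may not be independent molecules. Counts were not divided by length, since reads lie at transcript ends.

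EdgeR 4.0.16 in R 4.3.3 was used with filterByExpr, TMM scaling and the quasi-likelihood F-test, with group as the only term (4 residual degrees of freedom). The fit with the replicate block, also used for the test of replicate numbers, had 2 residual degrees of freedom. P-values were adjusted by Benjamini-Hochberg over 11921 genes and called under 0.05. CPM are TMM scaled, except the sums of cell type markers, which are scaled by total counts only. Log2 CPM for pair differences used a prior count of 2. SEs come from the F statistic and intervals are 95%. Alternatives were other scalings, no filter, DESeq2 1.42.0, limma-voom (limma 3.58.1), the replicate block, left-out libraries, and a length and GC correction chosen after seeing the data. The fits were tested on simulated data.

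Equally numbered libraries deviated together from their group means, with correlations across genes of 0.425, 0.353 and 0.651 for numbers 1, 2 and 3, all over the limit of 0.1. Of the 6 unequally numbered pairs, HPC 2 with LPC 1 was also over it, at 0.204, and the other 5 were below 0. The labels state no pairing, so it rests on the data, and deviations of 3 libraries cancel out, which weakens this check. The labels do not say whether replicates are separate cultures, so p-values measure only how these libraries vary, which may be technical variation.

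The 10 genes, the gene lists and the tests were chosen with earlier results of these data known. Besides the 10, up to 3 called genes of each list with the smallest adjusted p are named, with the 2 genes most like each called member. Oca2, Mbp and Myo5a are named beyond that rule, so that all 6 targets called with the block are given. Tyrp1, Pmel, Dct and Mlana are named as pigment cell markers, and regulators of the list without a call were named after their values were seen. Coordinates are from GENCODE M21 on GRCm38, which held 96.1% of the 22740 gene identifiers.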

Additional observations from a re-analysis of the deposited data

How the results depend on the processing

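The count of called genes, 5 over all genes without the block, was 28 with no filter, 224 with DESeq2, 301 with the replicate block, 500 with DESeq2 and the block and 359 with the block and the length and GC correction, which was chosen after seeing the data. Leaving out a library gave 0 to 43 genes and 0 members without the block. Leaving out a pair, with the block, gave 0 to 2947 genes and 0 to 2 members. The genes called were 2947 without the pair numbered 1, 0 without that numbered 2 and 196 without that numbered 3. Fits of 2 pairs have 1 residual degree of freedom. Members called were 1 with DESeq2 and 2 with the block, with DESeq2 and the block, and with the correction. The test of replicate numbers called 379 genes, 933 with DESeq2 and 1029 with no filter, and 3 members each time.

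Of 180 values, 18 alternatives for each of 10 members, 157 kept direction and side of the threshold, 10 newly passed, all of Tfap2a or Cited1, and 13 changed sign, none of which passed. Mitf was -0.040 without HPC replicate 1, -0.034 without LPC replicate 2, -0.029 with the block when leaving out the pair numbered 2, and -0.021 with the correction. Sox10 was 0.020 without HPC replicate 2 and 0.060 with the correction. Snai2 was -0.020 without HPC replicate 1 and -0.031 with the block when leaving out the pair numbered 1. Without HPC replicate 3, Tfeb was -0.16, Tbx2 -0.24 and Cited1 -0.013. Without LPC replicate 1, Tfeb was -0.14 and Tbx2 -0.090. Mlana was 0.047 without HPC replicate 3 and 0.054 with the block when leaving out the pair numbered 3, and Pmel -0.011 with the block when leaving out the pair numbered 1. The cause was not tested. The highest values with 1 library left out were 0.17 for Mitf, 0.28 for Tfeb, 0.21 for Snai2, 0.60 for Tbx2 and 1.87 for Cited1, and the lowest were -0.098 for Sox10 and -0.27 for Mlana. With the block, Cited1 did not pass without the pair numbered 2 (edgeR adjusted p = 0.195), and Tfap2a did not pass without the pair numbered 2 (0.267) or 3 (0.0759). The fit without the pair numbered 2 called 0 genes in all. The replicate block changed no other call among the 10, and no scaling changed the sign of a member. Snai2 and Zeb1 rest on few counts. So do 2 genes called with the block, S100a4, with 11 to 68 counts in LPC, and Adcy5, with 34 to 78 in HPC.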
